A study of Homo sapiens with 4 samples.

Results

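LAMP5 and its surroundings on chromosome 20 were followed in the H3K27Ac peak lists of MOLM13 cells, together with the neighbouring genes PLCB4 and PAK5 and the paralogues LAMP1 and LAMP3. These 5 genes, of 20037 protein-coding genes in the annotation, were chosen with these lists in view. From among the targets of MLL fusion proteins, LAMP5 was taken for the large share of its control peaks still covered after treatment. That share is therefore given as a description. MOLM13 cells come from a human acute myeloid leukemia and carry MLL1-r, a rearranged MLL1 gene. The control H3K27Ac library was labelled with no treatment, and the protocol gives its arm as DMSO; the other library came from cells exposed to 500 nM of the Menin inhibitor SNDX-50469 for 16 h. Both were made by ChIPmentation from cells of this single line. The series also has 2 input libraries, not used here. As each condition rests on 1 library, differences could not be set against replicate spread, and no test between conditions was made.

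H3K27Ac is an acetyl mark on histone H3 that is laid down by CBP/p300 at active promoters and enhancers. LAMP5 (BAD-LAMP) encodes a short member of the lysosome-associated membrane protein family, known from neurons and plasmacytoid dendritic cells, and it is among the genes that MLL fusion proteins keep active in leukemia. LAMP1 is an abundant, heavily glycosylated protein of the lysosomal membrane in nearly all cells, while LAMP3 (DC-LAMP) is known from mature dendritic cells. PAK5 encodes a p21-activated kinase and PLCB4 a phospholipase C beta, both best known from neural tissue.

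The control list held 245875 peaks covering 224 Mb and the SNDX-50469 list 54061 peaks covering 29.4 Mb. The lists did not reach down to the same level. The weakest control peaks had a fold of 2.66 over the background of their own library, which fits a pileup of 4 fragments over 0.877 per position. The weakest SNDX-50469 peaks had a fold of 3.46, which fits 5 fragments over 0.735. A position outside the SNDX-50469 peaks was thus below a higher mark than one outside the control peaks, and its H3K27Ac is unknown, not 0. Fold values are not on one scale between the libraries, so positions and covered lengths were compared, and the fold is given only to describe peaks within a list. All 8 myeloid marker genes looked at had control peaks, but so had the 4 T cell and the 4 B cell marker genes, so a control peak near a gene does not by itself mark the cell type. After treatment 7 of the 8 myeloid genes, 3 of the 4 B cell genes and none of the T cell genes had a peak.

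The promoter windows of LAMP5, LAMP1 and PAK5 are shown first, because the peaks described next lie over the first pair and miss the last. Each window runs from 250 bases before to 50 bases after the annotated start of the gene, 5′ to 3′ along the gene, as RefSeq gives it for GRCh38.p14. The capitals mark matches on either strand to CCAAT (the box of NF-Y), TATAAA (the TATA box), GGGCGG (the GC box), TGTGGT (known for RUNX factors), GGAAGT (known for ETS factors), TGACTCA (known for AP-1) or CACGTG (an E-box), and no match of one overlapped another.
LAMP5, chr20:9514340-9514639, plus strand: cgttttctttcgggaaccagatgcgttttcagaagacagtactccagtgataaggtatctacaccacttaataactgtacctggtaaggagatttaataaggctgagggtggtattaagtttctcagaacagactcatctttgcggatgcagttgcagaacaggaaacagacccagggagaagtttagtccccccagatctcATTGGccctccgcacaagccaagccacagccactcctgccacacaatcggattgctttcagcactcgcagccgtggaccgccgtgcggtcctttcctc
LAMP1, chr13:113296989-113297288, plus strand: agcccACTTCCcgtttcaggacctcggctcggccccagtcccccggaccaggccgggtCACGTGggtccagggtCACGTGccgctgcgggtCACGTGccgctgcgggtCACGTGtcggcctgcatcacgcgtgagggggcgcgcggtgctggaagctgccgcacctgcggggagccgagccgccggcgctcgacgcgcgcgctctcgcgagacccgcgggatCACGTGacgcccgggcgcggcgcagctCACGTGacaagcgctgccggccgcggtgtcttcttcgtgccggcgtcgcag
PAK5, chr20:9839027-9839326, minus strand: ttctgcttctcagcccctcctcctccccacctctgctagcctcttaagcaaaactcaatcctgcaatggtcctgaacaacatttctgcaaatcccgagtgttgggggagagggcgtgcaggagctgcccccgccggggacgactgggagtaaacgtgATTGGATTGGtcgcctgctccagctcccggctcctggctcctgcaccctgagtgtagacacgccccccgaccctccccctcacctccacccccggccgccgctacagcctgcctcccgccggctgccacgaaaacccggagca
The LAMP5 window held 11 CG pairs and 50.3% G or C. Its single match was a CCAAT on the other strand, beginning 48 bases before the start. CCAAT was present in 36.4% of 15843 protein-coding promoter windows. The LAMP1 window held 49 CG pairs, a number that 2.11% of the windows reached, and 75.0% G or C. It had 6 matches to CACGTG, the core of the element through which TFEB and its relatives are known to drive lysosomal genes. CACGTG was present in 8.88% of the windows, and of the 15843 windows LAMP1 was the only one with at least 5. The PAK5 window held 17 CG pairs and a pair of adjoining CCAAT matches on the other strand. PLCB4 and LAMP3 are not shown. The matches describe letters in these windows, not bound sites.

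In control cells, LAMP5 lay in one of the widest H3K27Ac peaks of the list. The peak ran from chr20:9470392 to chr20:9524011 (hg38), a width of 53620 bp, and ranked 14 of 245875 by width and 338 by fold. Its fold was 9.74 and its −log10 q 16.3. It began 44198 bp before the annotated 5′ end of LAMP5, inside the 3′ end of PLCB4, crossed the whole of LAMP5-AS1, a non-coding RNA transcribed away from LAMP5, and ended 9422 bp into the 15935-bp LAMP5 gene. The last 6513 bp of LAMP5 lay beyond it.

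After SNDX-50469 treatment this stretch was divided among 14 peaks, all inside the control peak. They covered 26041 bp, so that 48.6% of the control peak was kept. A single peak of 13949 bp made up 53.6% of that length. It reached from 11224 bp before to 2725 bp into LAMP5 (chr20:9503366-9517314), with a fold of 6.45 and a −log10 q of 6.72, and it ranked 28 of 54061 by width and 461 by fold in its own list. The other 13 peaks were weak, with a fold of at most 4.26, and the single wide one was the only peak of the 14 with a −log10 q of at least 5.

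**Figure D1:**
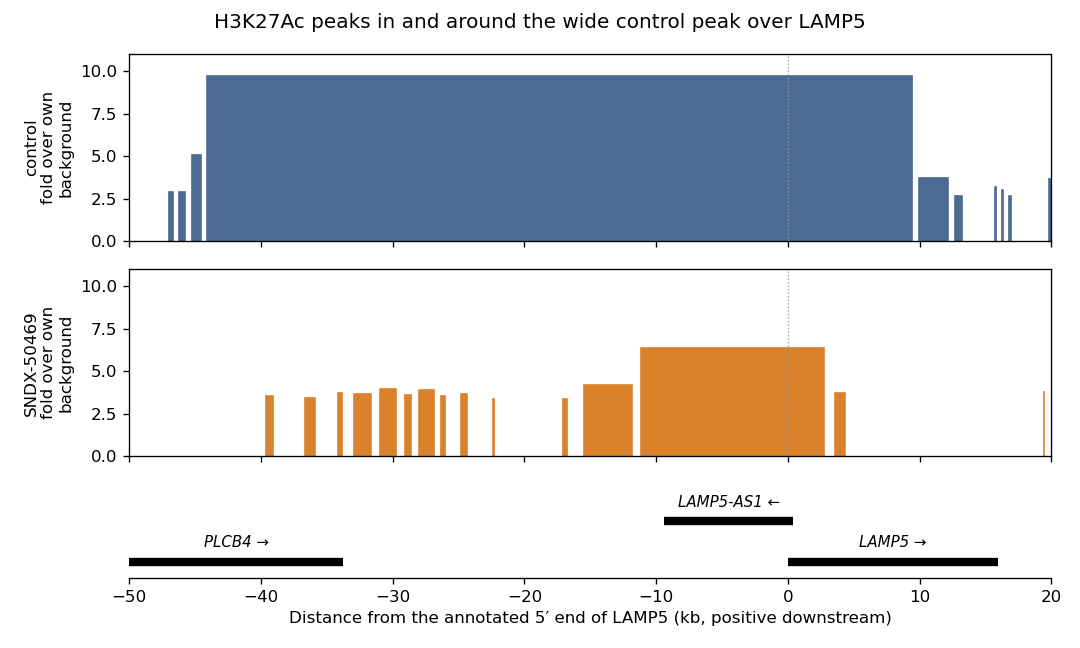
H3K27Ac peaks from 50 kb before to 20 kb after the annotated 5′ end of LAMP5, drawn as blocks whose height is the fold over the background of their own library, in the control library (upper, blue) and the SNDX-50469 library (lower, orange). Heights are not on one scale between libraries. The control peak of 53620 bp was divided into 14 peaks after treatment, the widest of which (13949 bp) spans the 5′ end of LAMP5.

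The kept length was concentrated around the neighbouring 5′ ends of LAMP5 and LAMP5-AS1, whose first parts overlap on opposite strands. From 10 kb before the 5′ end of LAMP5 up to that end, all positions were covered in both lists. In the next 5 kb, into the gene, 71.2% was kept, and of the 4563 bp covered in control from 5 to 10 kb into the gene, none was kept. The part of LAMP5-AS1 before LAMP5, 9410 bp, was kept whole. The 300-bp promoter windows of LAMP5 and of LAMP5-AS1 were covered from end to end in both lists.

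Further upstream, the kept length was broken up. The stretch between PLCB4 and LAMP5-AS1, 24371 bp with no annotated protein-coding gene, kept 46.5%, and the 10417 bp over the 3′ end of PLCB4 kept 16.8%. The longest gap between the 14 treated peaks, 5127 bp, divided them into 10 upstream and 4 downstream. The 10 upstream peaks lay at -39.7 to -22.3 kb from the 5′ end of LAMP5, were 134 to 1375 bp wide and covered 7196 bp, with folds between 3.46 and 4.05. The 4 downstream peaks, which include the wide one, covered 18845 bp. In 5-kb steps, the kept share was 54.6% at 35 to 30 kb and 48.8% at 30 to 25 kb before LAMP5, then 12.1% and 18.5% in the following steps, and 87.2% at 15 to 10 kb.

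Outside the wide peak, little of the control-covered length around LAMP5 was kept. In the region from 200 kb before to 200 kb after LAMP5 (chr20:9314590-9730524), 75 control peaks covered 112787 bp, of which 23.9% was kept. Of the 26975 bp kept, 26041 bp lay in the wide peak. Before the wide peak, 31 control peaks covered 41319 bp and 1.76% was kept. After it, 43 control peaks covered 17848 bp and 1.16% was kept. By number, most control peaks on both sides fell short of a −log10 p of 3.93, the smallest in the SNDX-50469 list. The absence of those that fell short therefore does not show a loss of H3K27Ac. With that value as a common cutoff, the region, wide peak included, had 86984 bp covered in control and kept 30.8%. The wide peak made up 53620 bp of this length and kept 48.6%. The 2 next widest control peaks, of 15006 and 9250 bp, lay side by side in the last part of PLCB4 (chr20:9436495-9451500 and chr20:9451924-9461173). They had folds of 4.48 and 4.03 and kept 4.08% and 1.24% of their length. Their −log10 p was 6.04 and 5.20, so both were above the common cutoff.

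**Figure D2:**
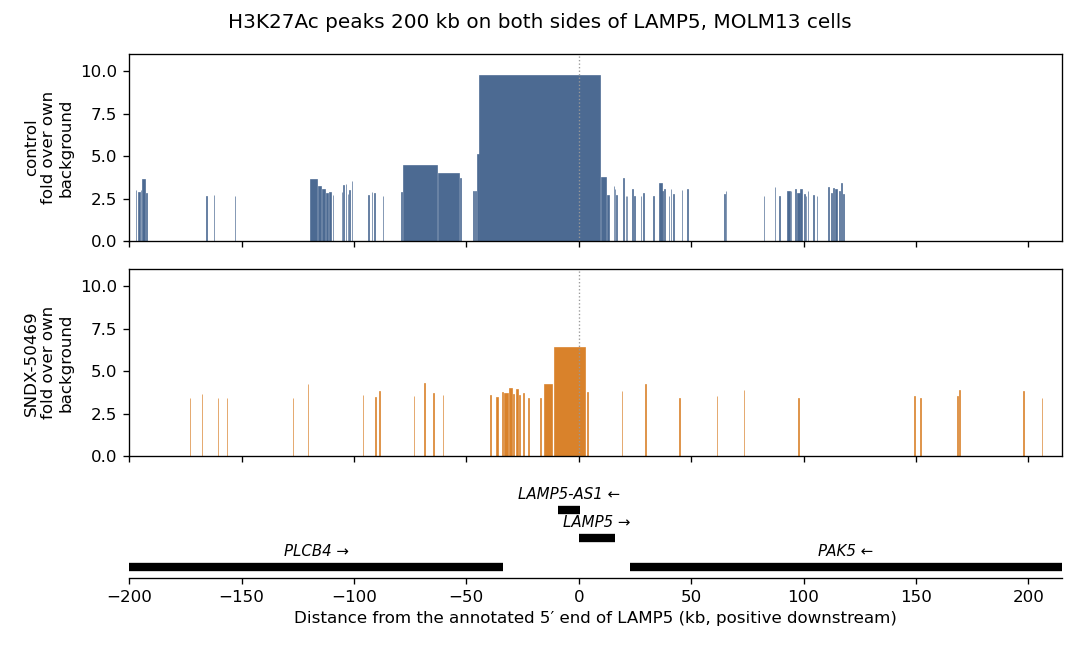
H3K27Ac peaks 200 kb on both sides of LAMP5, with distance from its annotated 5′ end in kb on the horizontal axis and fold over each library's own background as block height, control above and SNDX-50469 below. Outside the wide control peak the treated peaks are narrow and scattered. Of the 39 treated peaks in the region, 20 touch none of the control peaks. On the rest of chromosome 20 before its longest peak-free stretch, 393 of 989 do so.

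The region also held treated peaks where control had none. Of its 39 SNDX-50469 peaks, 20 did not touch any control peak. These were short (median 128.5 bp, widest 699 bp), and their highest −log10 q was 2.52. Their density was 48.1 per Mb. Such peaks were more frequent on the whole part of chromosome 20 that holds LAMP5. On the 25.3 Mb before the chromosome's longest peak-free stretch (chr20:25747190-28842757), outside this region, there were 15.5 per Mb, and on the 35.4 Mb after it 1.89 per Mb. By number, these were 393 of 989 treated peaks before that stretch and 67 of 453 after it. The kept share of control length differed in the same direction, with 10.9% before that stretch and 6.85% after it. Of the other control peaks of at least 20 kb on chromosome 20, the 8 before it kept a median of 37.3% (7.41 to 85.9%), and the 9 after it kept a median of 7.43% (0 to 40.2%). The part of this difference between the sides of the chromosome in the values at LAMP5 was not tested.

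The share kept by the wide LAMP5 peak was set beside that of control peaks of like width. The 10 control peaks nearest in width, from 48565 to 57889 bp, kept between 17.2 and 90.4%, with a median of 61.1%, and 6 of them kept more than the 48.6% at LAMP5. Of these 10, 4 lay on chromosome 8. Among the 6 elsewhere, 3 kept more than LAMP5. The 10 included the peaks over AHRR and EXOC3 (90.4%), over CEBPA (69.5%) and over BCL2 (19.5%). Of the 46 control peaks of at least 40 kb, 17 kept more than the LAMP5 peak, and their median was 38.6%. Of the 452 peaks of at least 20 kb, 82 kept more, with a median of 25.5%. The high value at LAMP5 thus stood within the range of similarly wide peaks.

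**Figure D3:**
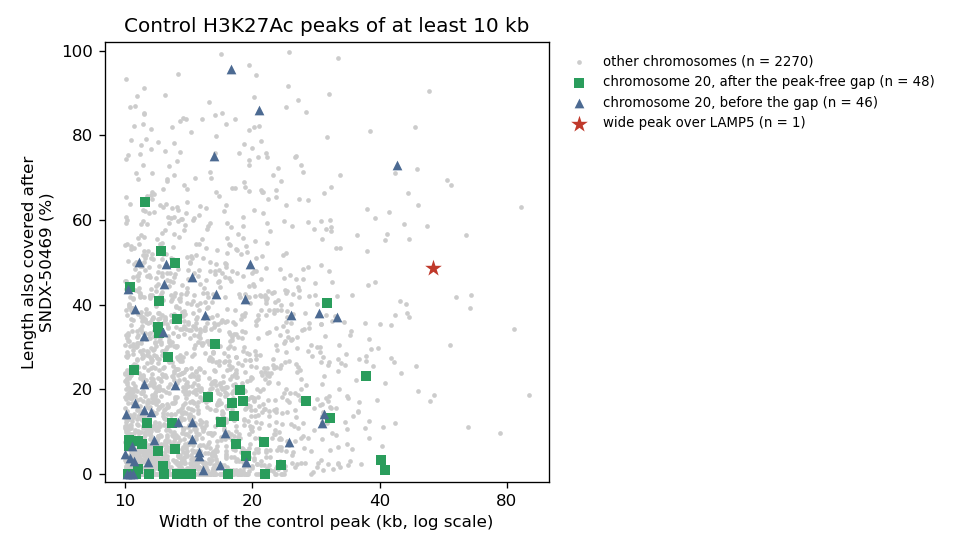
Share of each control peak of at least 10 kb that was also covered after SNDX-50469 treatment (vertical axis, %) against its width in control (kb, log scale), 1 point per peak. The wide peak over LAMP5 (star, 53620 bp, 48.6%) lies among other wide peaks, and peaks of chromosome 20 are divided at its peak-free stretch.

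Over the LAMP5 gene and its 5-kb flanks, 18153 bp lay in control peaks and 8667 bp in treated peaks, with 47.1% kept. Among protein-coding genes with at least 1 kb covered in control, the median kept share was 5.20%, and 504 of 13356 genes (3.77%) kept at least as much as LAMP5. Among the 2390 genes with at least as much control length as LAMP5, the median was 6.83% and 35 (1.46%) did. A gene was called lower when its treated covered length was at most 50% of that in control. This held at 95% of the 13356 genes, and at LAMP5, PAK5, PLCB4 and LAMP1, the 4 of 5 members with enough control length. LAMP5 stood just inside this limit, at 47.7%, and its call depended on the setting. Its kept share alone was 53.6% with peaks at a −log10 q of at least 5, 50.5% with a common cutoff on −log10 p and 59.3% with a trimmed control list, so that LAMP5 was not called lower under these 3. In that trimmed list, cut from its weakest peaks to the covered length of the treated list, 38.6% of 3204 genes were called lower. Its value joined 2 unlike parts. Within 5 kb of the 5′ end, 85.6% of 10001 bp was kept, and over the remaining 8152 bp none was. By number, 1 of its 8 control peaks, the wide one, overlapped a treated peak (12.5%, with a Wilson 95% interval of 2.24 to 47.1%). Some length near the 5′ end was kept at 50.8% of the genes with control peaks there, and at LAMP5 and LAMP1 but not PAK5 among the 3 members with any.

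The genes with covered lengths most like those of LAMP5 in both lists, outside its own megabase and chromosome 8, were TIFAB, NIPBL, MED29, PRKRIP1 and MIDN, by the distance of the 2 log2 lengths among 9444 genes with peaks in both lists. Their control lengths lay between 17697 and 18792 bp and their treated lengths between 8335 and 9103 bp. In 4 of them the kept share was also near that of LAMP5, from 46.3 to 50.4%. NIPBL, the cohesin loader, had 21.2% kept, so that much of its treated length lay away from its control peaks.

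In control, the neighbours on both sides were covered mostly where they faced LAMP5. PLCB4, upstream of LAMP5 and on the same strand (chr20:9068678-9480808), had no peak of either list within 5 kb of its annotated 5′ end. Its nearest control peak lay 76203 bp into the gene. With flanks, 41 control peaks covered 58402 bp and 27 treated peaks 9141 bp, with 9.47% kept. This share moved with the setting, to 3.0% and 0% at a −log10 q of at least 2 and 5, 31.2% with the trimmed control list, 26.9% with 50-kb flanks and 4.63% with none. In the gene body divided into 3 equal parts from the 5′ end, control peaks covered 628, 4230 and 48544 bp, the most on the side of LAMP5, and treated peaks covered 1124, 1029 and 3932 bp. The wide LAMP5 peak overlapped PLCB4 and its flank by 15417 bp. Without it, the control length of PLCB4 was 42985 bp, the treated length 4337 bp and the kept share 1.69%.

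PAK5, downstream of LAMP5 on the opposite strand (chr20:9537370-9839076), had 39 control peaks covering 14528 bp and 16 treated peaks covering 3898 bp. Its control peaks were short and weak, the widest 1274 bp and the highest fold 3.68. Of the 14528 bp, 1.42% was kept, in 1 of the 39 peaks (2.56%, Wilson 95% interval 0.454 to 13.2), and 15 of the 16 treated peaks shared no position with control. The 3 equal parts of PAK5 from its 5′ end held 75, 0 and 13785 bp of control peaks, again the most on the side of LAMP5. The treated peaks, with 707, 1712 and 1371 bp, did not follow this layout. Near the 5′ end of PAK5 there was a single control peak of 75 bp, 4910 bp into the gene, and no treated peak. Its promoter window, shown above, was uncovered in both lists. The wide LAMP5 peak ended before PAK5 and did not enter its values.

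Neither PLCB4 nor PAK5 had a treated peak within 5 kb of its 5′ end. For comparison, 67.4% of the 19666 protein-coding genes with a known strand had a control peak within 5 kb of the 5′ end, and 37.4% had a treated peak there. The other protein-coding genes within 1 Mb, which include PLCB1, ANKEF1, SNAP25, MKKS and SLX4IP, all had a control peak over the gene or its flanks; the kept share was between 0 and 25.2% at these genes, and all 9 genes with at least 1 kb in control within that distance, the members LAMP5, PLCB4 and PAK5 included, were called lower, as were 95% of all genes tested. Among these 9, LOC128706665 and LOC128706666 have the same coordinates, lie inside MKKS and share its 5′ end, so these entries are not separate loci. The call at LAMP5 has the limit given above.

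**Figure D4:**
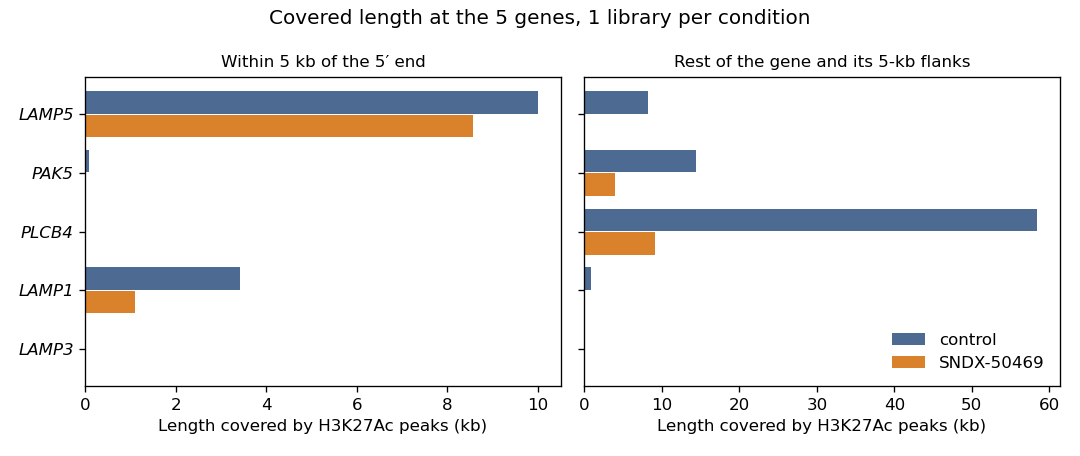
Length covered by H3K27Ac peaks (kb) in the control (blue) and SNDX-50469 (orange) libraries at the 5 genes, divided into the 10 kb around the annotated 5′ end (left) and the rest of the gene with its 5-kb flanks (right). The axes of the panels differ. LAMP5 and LAMP1 carried most of their treated length near the 5′ end, where PLCB4 and LAMP3 had no peak in either library.

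Like LAMP5, LAMP1 (chr13:113297239-113323672) kept length only within 5 kb of its 5′ end, but at a much smaller scale. Its 8 control peaks covered 4261 bp, and 3 treated peaks covered 1099 bp, with 25.5% kept. The share was 12.4% at a −log10 q of at least 2, 38.9% with the common cutoff and 14.4% with 50-kb flanks. Within 5 kb of the 5′ end 31.8% of 3421 bp was kept, and of the 840 bp elsewhere none. Control peaks of 105 and 656 bp made up most of that length and were weak, with folds of 2.92 and 2.93. By number, 2 of the 8 LAMP1 control peaks overlapped a treated one (25.0%, with a Wilson 95% interval of 7.15 to 59.1%). The strongest control peak, chr13:113296524-113298252, was 1729 bp wide, spanned the 5′ end and had a fold of 4.35 and a −log10 q of 3.88. After treatment a pair of peaks lay in its place, one on each side of the start site, chr13:113296665-113297123 (fold 3.90) and chr13:113297652-113298013 (fold 4.01). The 528 bp between them took in 115 bp before and 413 bp after the start. Of the 6 CACGTG matches printed above, 4 lay in the upstream treated peak and 2 in the gap. The 300-bp window as a whole was covered in control, and 135 bp of it after treatment. Of the 15843 promoter windows, 49.1% were covered at least in part in control and 21.7% after treatment.

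LAMP3 (chr3:183122215-183163813) had no control peak over the gene or its flanks, as did 22.0% of protein-coding genes. The nearest control peak lay at -21426 bp from its 5′ end, outside the flank. A single treated peak of 116 bp lay 8911 bp into the gene, with a fold of 3.46, the smallest in that list. Of the 4403 genes with no control peak, 8.45% had a treated peak. The control list thus held H3K27Ac peaks at LAMP5 and LAMP1 and none at LAMP3.

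The other members of the family, LAMP2 and CD68 (macrosialin, a myeloid lysosomal glycoprotein), had control peaks over their 5′ ends. LAMP2 kept 5.31% of 9729 bp covered in control, and its single treated peak near the start began 512 bp into the gene. CD68 kept 27.6% of 11658 bp. A control peak of 7350 bp crossed its 5′ end, and after treatment a peak of 1401 bp began 3 bp before the start. The order of kept shares in the family, LAMP5 (47.1%), CD68, LAMP1 and LAMP2, rests on 1 library per condition, and these lengths have no interval. All 4 were called lower, beside 95% of all genes tested, LAMP5 with the limit given above.

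**Figure D5:**
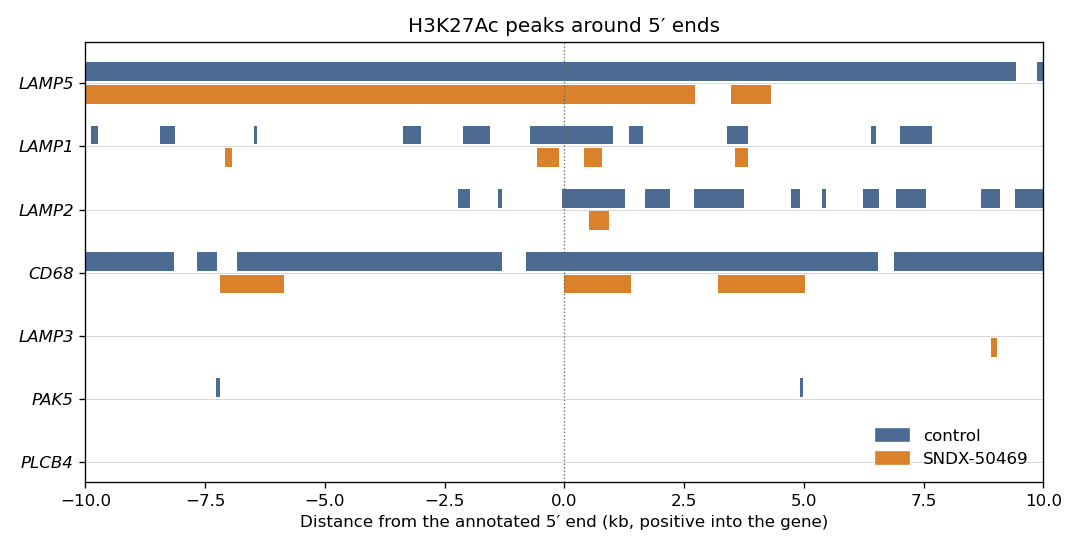
H3K27Ac peaks within 10 kb of the annotated 5′ end (horizontal axis, kb, positive into the gene) of the LAMP family genes and the LAMP5 neighbours, control in blue above and SNDX-50469 in orange below each line. LAMP5 is covered on both sides of its 5′ end in both libraries, the treated peaks of LAMP1 leave 528 bp around its start free, and PLCB4 has no peak.

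Genes of the lysosome and of endosomal signalling were also read, as the pathways of the LAMP proteins. Of 23 genes for lysosomal membrane proteins, acidification, hydrolases and the transcription factors that drive such genes, all had a control peak and 13 kept some of it. Over all protein-coding genes, 22.0% had no control peak, and of the 13356 with at least 1 kb in control 4787 kept none. The 22 lysosomal genes with at least 1 kb in control were called lower, a share near the 95% of all genes. The median kept share of these 22 was 0.812%, beside 5.20% over all genes tested, and the highest of the 22 was that of CLCN7, a lysosomal chloride-proton exchanger, at 40.1%. TMEM192, a lysosomal membrane protein gene with 969 bp in control and so under the limit of 1 kb, kept 53.3%. TFEB, a master regulator of lysosomal genes, had the most control length of the list, 38521 bp, and kept 13.7%. Of 7 genes of the endosomal Toll-like receptor pathway, in which LAMP5 is known to affect TLR9 trafficking, 6 had control peaks and were called lower, again near the 95% of all genes, with a median of 1.35% kept. TLR9 kept 34.9% of 13998 bp, and UNC93B1, the chaperone of these receptors, kept 30.7% of 8622 bp. The other p21-activated kinase and phospholipase C beta genes were also called lower where tested, near that share again, with medians of 0.585% over the 6 PAK genes and 5.41% over the 4 PLCB genes, PAK5 and PLCB4 included.

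Among the MLL fusion targets that the study names for MOLM13 cells, and which it may have chosen on these libraries, 7 of 8 were called lower, beside 95% of all genes tested, and the median kept share was 5.05%, which is no independent evidence of their direction. HOXA9, with 86.9% of 8297 bp, kept a larger share than LAMP5 and was the target not called lower. All of that length lay within 5 kb of its 5′ end, whereas LAMP5 also had 8152 bp further away, with none kept. FLT3 kept 18.5%, and the other 6 kept between 2.96 and 6.46%. LAMP5 was picked from such targets for its high share, so its standing among them follows from that choice and is no finding. Within 5 kb of the 5′ end, where LAMP5 kept 85.6%, HOXA9 kept 86.9%, FLT3 53.3%, PBX3 49.0%, SENP6 37.7%, CDK6 31.9%, MEIS1 20.9%, JMJD1C 19.5% and MEF2C 0%. For H3K27Ac in MOLM13 cells, the study reports lower peak density after SNDX-50469 at LAMP5, CDK6, PBX3, SENP6, JMJD1C, MEF2C and MEIS1. It does not name HOXA9 or FLT3 there. Kept share compares positions and is not a measure of that density.

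Peaks were also joined into larger regions in the manner of super enhancer calling, by linking those within 12.5 kb and ranking regions within each list by the sum of fold times width. In control, LAMP5 lay in a region of 168018 bp (chr20:9395071-9563088) made of 45 peaks, which took in parts of PLCB4 and PAK5 and ranked 221 of 24668. After treatment it lay in a region of 43976 bp (chr20:9474926-9518901) made of the 14 peaks inside the wide control peak, which ranked 84 of 18541. Both regions were above the point at which the scaled curve of its list has a slope of 1. A rank is within a single list, so the lower rank number after treatment is no gain of H3K27Ac.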

How the data were processed

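MOLM13 cells were profiled for H3K27Ac by ChIPmentation, with 1 library from control cells and 1 from cells kept for 16 h in SNDX-50469 at 500 nM. Per the labels' processing notes, the tools included Trim Galore 0.6.5, Bowtie2 2.3.4.2, Picard 2.9.0 and MACS2 2.1.2, with GRCh38; the supplementary methods instead give TopHat2 and hg38. Options and the use of the inputs are not given in the sources used here. Each library has its own broad peak list from the authors. For each peak, the deposited ratio is a mean fold against the library's own background. The deposited −log10 values are p and q. The deposited score, 10 times −log10 q cut to a whole number, was not used. These values are not scaled between libraries. Read totals are unknown. The background was recovered from each list's weakest peaks, taking fold as pileup plus 1 over background plus 1 and p as a Poisson tail.

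Positions were compared with Python 3.11.15, numpy 2.4.6, pandas 2.3.3 and scipy 1.17.1, with interval code tested on simulated data. Kept share is the percent of control-covered length that treated peaks also cover, over a gene with 5 kb on both sides or over a stated region; a peak was kept with at least 1 bp shared. Gene positions, and the strand of 15843 genes, came from RefSeq GRCh38.p14; the strand of another 3823, PLCB4, LAMP2 and LAMP3 among them, came by symbol from GENCODE on another build, without its coordinates. No genome sequence of this build was used, so only RefSeq promoter windows are printed. Wilson 95% intervals hold for counting error alone and treat neighbouring peaks as independent, which they are not. Lengths have no interval.

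The 5 members, gene lists and rules for naming genes were chosen with earlier results of these data known. The rule names the members, protein-coding genes within 1 Mb, the lists given, the 5 genes nearest in covered lengths and the genes under the 10 control peaks nearest in width. CLCN7, TMEM192, TLR9 and UNC93B1 were named after their values were seen. The comparison of the sides of chromosome 20, the joined regions and the 3 equal parts of PLCB4 and PAK5 were added after the values were seen. Stricter or common cutoffs, a trimmed control list, joined peaks and other flanks were tried as alternatives.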

Additional observations from a re-analysis of the deposited data

How the results depend on the processing

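No paired analysis was possible because there is 1 library in each condition. Of the wide control peak, 37.6% was kept with peaks at a −log10 q of at least 2 in both lists, 26.0% at 5 or with the widest treated peak alone, and 56.8% with peaks within 1 kb joined; the 14 treated peaks became 4, 1 and 7 under the first, second and last of these. With a common cutoff on −log10 p, or with the control list trimmed to the covered length of the SNDX-50469 list, the share stayed at 48.6%. These settings could not change it, as both leave the SNDX-50469 list whole and the wide control peak passes both. LAMP5 with its flanks kept 59.3% with the trimmed list and 28.6% with no flank. The 415935-bp region kept 30.8% with the common cutoff and 48.6% with the trimmed list, where only the wide peak was left. The number of genes called lower was 12682, or 95% of those tested. It was 6373 (93.4%) at a −log10 q of at least 5 and 1238 of 3204 (38.6%) with the trimmed list. Fewer genes were tested under both, and with the trimmed list the share called was lower too. The 95% was found with lists covering 224 Mb in control and 29.4 Mb after treatment, a difference that the trimming removes. The part of the 95% that goes with this difference was not tested. The 1.42% at PAK5 became 0 with a −log10 q of at least 2 or the common cutoff. PAK5 kept 34.8% with 50 kb on both sides, which takes in part of the wide LAMP5 peak. LAMP1 and PAK5 gave no value at a −log10 q of at least 5 or with the trimmed list, where they had no control peak, and LAMP3 gave none in the main measure. The alternatives without the wide peak and with the widest treated peak alone were chosen after seeing the data. The lists limit each value to positions called in each library, and signal under the higher mark of the SNDX-50469 list cannot be seen.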
